A study of Mus musculus with 2 samples.

Results

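Toll-like receptors and the proteins that work with them were followed through the cells of the aneurysmal mouse aorta. The genes were chosen by name: the receptors Tlr2, Tlr4, Tlr7, Tlr9 and Tlr13, the accessory proteins Cd14 and Ly96, the adaptor Myd88 and the inhibitory kinase Irak3. All 9 were found among the 31253 deposited features. Together they held 0.164% of the UMIs (counts of distinct molecular tags, 1 for each transcript captured) in Gsdme-KO and 0.240% in WT. The study compared abdominal aorta from mice with a global deletion of Gsdme (Gsdme-KO) with that of C57BL/6J mice (WT). Gsdme encodes gasdermin E, a protein that caspases cleave and that then opens pores in the cell membrane. In all mice, those of the WT group included, an abdominal aortic aneurysm had been induced by infusion of PPE. The labels do not spell PPE out; in this field it stands for porcine pancreatic elastase, an enzyme that degrades elastin. No aorta without PPE was analysed here. Each genotype was 1 BD Rhapsody library. The sources used here give neither the number, age and sex of the mice nor the time after infusion nor the deleted part of Gsdme. The differences below were therefore not tested and rest on no replicates. Each interval is at the 95% level and holds counting error only, so it describes these libraries and not the genotypes.

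In Gsdme-KO 8784 of 9034 barcodes were kept as cells, with a median of 4062 UMIs per cell, from a total of 52532964 UMIs. In WT 7619 of 7736 barcodes were kept, with a median of 3835 UMIs, from a total of 38988898 UMIs. The median mitochondrial share was 3.55% in Gsdme-KO and 2.81% in WT, and 73 barcodes occurred in both libraries. Clustering that left the 9 genes out of the variable genes gave 26 clusters. Clusters were named "-like" from marker lists, and 13 cell groups with at least 100 cells in each library were compared. Neutrophil-like cells made up 14.2% of Gsdme-KO and 16.8% of WT cells. Smooth muscle-like cells, the defining cells of the aortic wall, numbered 174 in Gsdme-KO and 61 in WT and fell outside that minimum. Macrophage-like clusters are given by number: cluster 3 was led by Lyve1, Fcna and Folr2, cluster 4 by Gpnmb, Trem2 and Spp1, cluster 8 by Cd72 and Slamf9, cluster 9 by cell cycle genes and cluster 20 by Arg1 and Spp1. Cluster 9 met 3 macrophage markers, but none was among its leading genes, which also held Ngp, a neutrophil granule gene. In UMIs per 1000000 UMIs of the group (CPM), its 9 neutrophil markers summed to 91.6 CPM in Gsdme-KO and 616 CPM in WT (ratio 0.149), and its 20 macrophage markers to 13318 CPM in Gsdme-KO and 13547 CPM in WT (ratio 0.983). Cluster 20 also met only 3 macrophage markers. Its 9 monocyte markers, Arg1 among them, summed to 13354.7 CPM in Gsdme-KO and 14865.5 CPM in WT. Its 20 macrophage markers summed to 10658.2 CPM in Gsdme-KO and 11766.7 CPM in WT. In monocyte-like cells the 9 monocyte markers summed to 10600.2 CPM in Gsdme-KO and 12141.6 CPM in WT. The macrophage name of cluster 20 is thus uncertain. The dendritic-like group was cluster 12, led by Cd209a, Flt3, Siglech, Klrd1, Klrb1b, Ccr7 and Clec9a among others. Siglech is on the marker list of plasmacytoid dendritic cells, so the group may pool more than 1 cell type. The part of such a mix in its values was not tested. Gsdme stood at 2.55 CPM in Gsdme-KO and 5.53 CPM in WT over all cells (ratio 0.461, 0.368 to 0.575), and 3' tags outside the deleted part check nothing. That ratio also takes in the make-up of the libraries. In neutrophil-like cells Gsdme had 10.9 CPM in Gsdme-KO and 23.2 CPM in WT (ratio 0.470, 0.275 to 0.780). It was higher in Gsdme-KO in monocyte-like (22 UMIs, 5 in WT), dendritic-like (9 UMIs, 3 in WT) and B cell-like cells (3 UMIs, 0 in WT), all from few UMIs.

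Toll-like receptors are membrane proteins that bind microbial molecules and, as reported, some molecules released by damaged tissue. Tlr2 and Tlr4 sit at the cell surface, where Tlr2 binds lipoproteins and Tlr4, with Ly96 (also called MD-2), binds bacterial lipopolysaccharide that Cd14 hands over. Tlr7, Tlr9 and Tlr13 sit in endosomes and bind single-stranded RNA, DNA with unmethylated CpG and bacterial ribosomal RNA. All of these receptors signal through Myd88, which recruits IRAK kinases and leads to NF-kB and cytokine transcription. Irak3, also called IRAK-M, lacks the kinase activity of its relatives and restrains this step in macrophages.

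Over the cell groups in both libraries (26 points), the levels of Tlr2 and Tlr13 ran alike (Pearson r = 0.902). Those of Irak3 did not follow them (r = -0.00844 with Tlr2 and 0.129 with Tlr13). Promoter sequences are shown for Tlr2, Tlr13 and Irak3. They are RefSeq sequences of the GRCm38.p6 build (mm10), from 250 bases before to 50 bases after an annotated start, 5′ to 3′ on the strand of the gene. Capitals mark matches, on either strand, to the NF-kB consensus, to the PU.1 core GAGGAA or to the AP-1 site TGANTCA. The windows are chr3:83841559-83841858 on the minus strand for Tlr2, chrX:106143025-106143324 on the plus strand for Tlr13, and chr10:120201548-120201847 and chr10:120202081-120202380 on the minus strand for the Irak3 starts A and B.
Tlr2: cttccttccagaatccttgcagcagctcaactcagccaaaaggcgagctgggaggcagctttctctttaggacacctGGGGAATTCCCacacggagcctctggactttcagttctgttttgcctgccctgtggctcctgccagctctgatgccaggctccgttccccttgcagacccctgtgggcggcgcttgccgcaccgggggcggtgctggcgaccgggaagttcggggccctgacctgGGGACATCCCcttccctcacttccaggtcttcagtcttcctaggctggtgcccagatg
Tlr13: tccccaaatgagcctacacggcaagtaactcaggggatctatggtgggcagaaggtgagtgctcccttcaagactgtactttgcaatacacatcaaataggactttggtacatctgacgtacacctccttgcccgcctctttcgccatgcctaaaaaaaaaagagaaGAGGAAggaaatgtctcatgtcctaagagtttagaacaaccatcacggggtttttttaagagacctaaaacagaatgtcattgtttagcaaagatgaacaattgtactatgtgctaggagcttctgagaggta
Irak3 start A: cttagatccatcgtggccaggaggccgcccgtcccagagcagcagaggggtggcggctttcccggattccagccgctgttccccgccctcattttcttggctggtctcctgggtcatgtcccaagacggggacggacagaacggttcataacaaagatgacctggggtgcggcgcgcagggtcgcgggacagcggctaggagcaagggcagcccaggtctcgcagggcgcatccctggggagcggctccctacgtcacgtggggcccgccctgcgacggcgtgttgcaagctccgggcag
Irak3 start B: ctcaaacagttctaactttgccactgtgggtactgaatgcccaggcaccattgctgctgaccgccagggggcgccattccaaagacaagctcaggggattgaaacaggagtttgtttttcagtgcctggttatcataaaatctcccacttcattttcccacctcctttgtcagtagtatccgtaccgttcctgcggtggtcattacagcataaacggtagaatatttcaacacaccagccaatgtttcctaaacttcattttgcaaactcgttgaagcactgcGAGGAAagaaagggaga
The Tlr2 window held 3 NF-kB matches, a pair of which overlap, and no PU.1 or AP-1 match. The Tlr13 window and Irak3 start B held 1 PU.1 match each, and Irak3 start A held no match to any of the motifs. Of the 32851 promoters of the same length in the table, 4.51% held an NF-kB match, 28.3% a PU.1 match and 7.81% an AP-1 match. Tlr9, which was low in all groups below, had 2 PU.1 matches and 1 AP-1 match, and Myd88 had no match. The table held promoters for 5 of the 9 genes, and Tlr4, Tlr7, Cd14 and Ly96 were not among them. A match describes these letters only and is not evidence of binding.

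In position, the 9 genes are spread over the genome (mm10, GENCODE M21). Tlr2 (ENSMUSG00000027995) lies on chromosome 3, 83836272 to 83841767, minus strand, and Tlr4 (ENSMUSG00000039005) on chromosome 4, 66827584 to 66930284, plus strand. Tlr7 (ENSMUSG00000044583) and Tlr13 (ENSMUSG00000033777) lie on chromosome X, at 167304929 to 167330558 on the minus strand and 106143204 to 106160493 on the plus strand. Cd14 (ENSMUSG00000051439) lies on chromosome 18, 36725067 to 36726798, minus strand, and Ly96 (ENSMUSG00000025779) on chromosome 1, 16688051 to 16709611, plus strand. Tlr9 (ENSMUSG00000045322, 106222598 to 106226883, plus strand) and Myd88 (ENSMUSG00000032508, 119335934 to 119341411, minus strand) share chromosome 9. Irak3 (ENSMUSG00000020227) lies on chromosome 10, 120141648 to 120202130, minus strand. The span of Myd88 overlaps those of Slc22a14 and Acaa1a, and that of Irak3 overlaps Tmbim4 and the antisense gene Gm47009. The sources used here do not say whether counting used strand, so UMIs from the shared stretches are uncertain. No other of the 9 genes overlaps an annotated gene.

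Levels were taken per cell group as UMIs of a gene per 1000000 UMIs of that group (CPM), and are compared below between groups for 1 gene at a time. The 9 genes did not share 1 pattern. Neutrophil-like cells had the highest level of Tlr4, Tlr13, Cd14, Myd88 and Irak3 in both libraries, macrophage cluster 8 of Tlr7 and macrophage cluster 3 of Ly96. For Tlr2 the highest group was neutrophil-like in Gsdme-KO and macrophage cluster 8 in WT. For 7 of 9 genes the highest group was thus the same in both libraries. Counting did not resolve the first place from the next group for Tlr7, Ly96, Myd88 and Irak3 in either library, since their intervals overlapped.

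**Figure D1:**
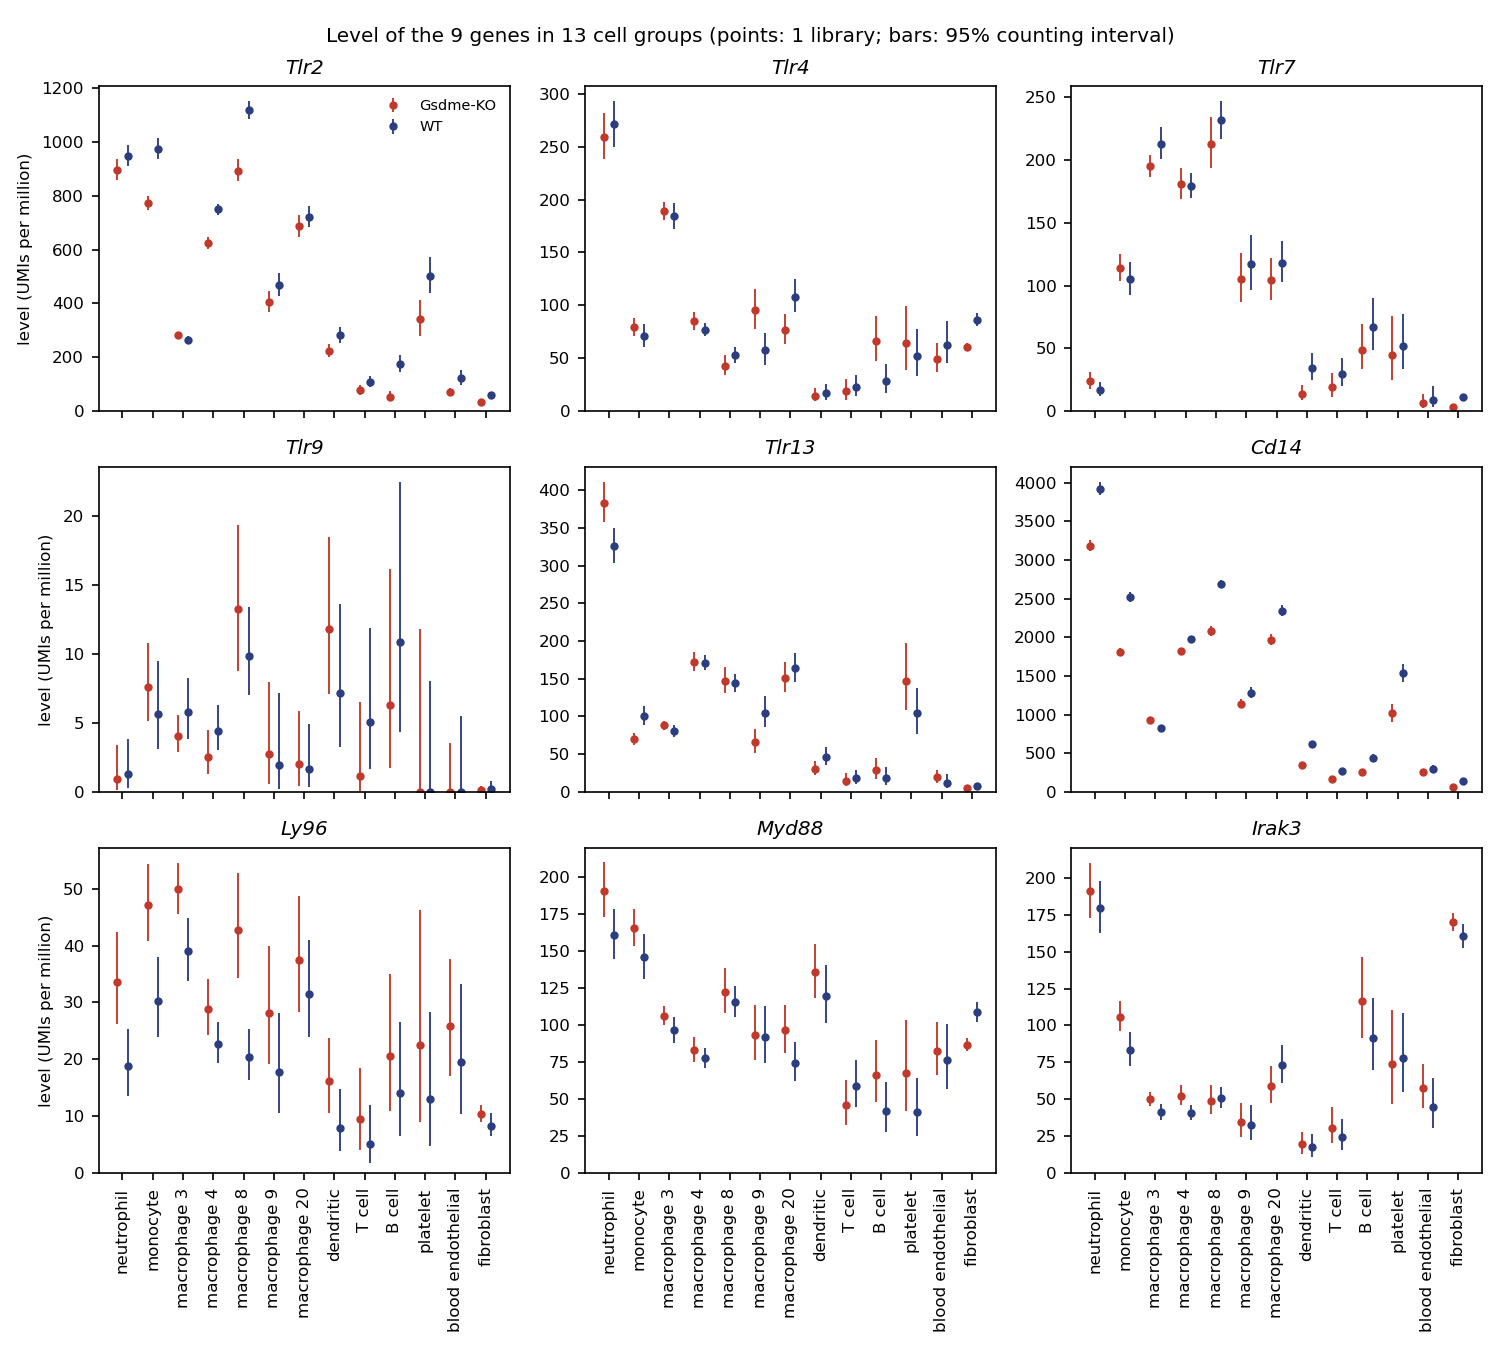
Level of each gene in CPM (vertical axes, a separate scale per gene) in 13 cell groups. Each point is 1 library, Gsdme-KO in red on the left and WT in blue on the right, and bars are 95% Poisson intervals for counting error. Cd14 reached 3187 CPM in Gsdme-KO and 3924 CPM in WT neutrophil-like cells, whereas Tlr9 stayed at or below 13.3 CPM in every group.

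The lipoprotein receptor Tlr2 was a gene of all myeloid groups. In neutrophil-like cells it stood at 897 CPM in Gsdme-KO and 949 CPM in WT, in macrophage cluster 8 at 894 CPM in Gsdme-KO and 1119 CPM in WT and in monocyte-like cells at 773 CPM in Gsdme-KO and 974 CPM in WT. In Gsdme-KO the intervals of neutrophil-like cells and cluster 8 overlapped, so their order was not resolved by counting. The Lyve1-led cluster 3 had the lowest level among the macrophage clusters, 283 CPM in Gsdme-KO and 263 CPM in WT. Platelet-like cells stood above it, at 340 CPM in Gsdme-KO and 502 CPM in WT. Their 20 macrophage markers summed to 6992 CPM in Gsdme-KO and 7104 CPM in WT, and the part of macrophage transcripts in their Tlr2 level was not tested. T cell-like cells, which are not a usual site of Tlr2, had 76.3 CPM in Gsdme-KO and 109 CPM in WT, and fibroblast-like cells 33.9 CPM in Gsdme-KO and 59.9 CPM in WT. After each cell was thinned to 1000 UMIs, a Tlr2 UMI was seen in 522 of 1082 Gsdme-KO cells (48.2%, 45.2 to 51.3) and in 517 of 1146 WT cells (45.1%, 42.2 to 48.0) of the neutrophil-like group. In T cell-like cells the thinned share was 4.41% of Gsdme-KO and 4.36% of WT cells, read here as the background. The median depths of these cell groups before thinning were 1568 UMIs in Gsdme-KO and 1655 in WT neutrophil-like cells, and 2646 in Gsdme-KO and 2720 in WT T cell-like cells. Without thinning, Tlr2 was seen in 57.7% of Gsdme-KO and 54.1% of WT cells of the neutrophil-like group and in 7.69% of Gsdme-KO and 8.28% of WT cells of the T cell-like group.

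Tlr4, the lipopolysaccharide receptor, set cluster 3 apart from the other macrophage clusters. Its level was 259.6 CPM in Gsdme-KO and 271 CPM in WT in neutrophil-like cells and 189 CPM in Gsdme-KO and 184 CPM in WT in cluster 3. The next highest macrophage cluster was cluster 9 in Gsdme-KO at 95.2 CPM and cluster 20 in WT at 108 CPM. Cluster 8 had 42.8 CPM in Gsdme-KO and 52.7 CPM in WT, so the macrophage clusters ran in a different order for Tlr4 than for Tlr2. Fibroblast-like cells had 60.7 CPM in Gsdme-KO and 86.5 CPM in WT, and dendritic-like cells, the lowest group, 14.3 CPM in Gsdme-KO and 16.8 CPM in WT. After thinning, Tlr4 was seen in 88 of 1535 Gsdme-KO cells (5.73%, 4.62 to 7.02) and in 82 of 954 WT cells (8.60%, 6.89 to 10.6) of the fibroblast-like group, against 0.735% of Gsdme-KO and 1.01% of WT cells of the T cell-like group. Fibroblast-like cells thus stood above that background in both libraries, and they held 21.8% of all Tlr4 UMIs in Gsdme-KO and 20.5% in WT.

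Cd14, the lipopolysaccharide carrier, was found where Tlr2 was found. It stood at 3187 CPM in Gsdme-KO and 3924 CPM in WT in neutrophil-like cells, 2077 CPM in Gsdme-KO and 2687 CPM in WT in cluster 8 and 1814 CPM in Gsdme-KO and 2517 CPM in WT in monocyte-like cells. In cluster 3 it stood at 933 CPM in Gsdme-KO and 829 CPM in WT, the lowest of the macrophage clusters. Fibroblast-like cells had 59.0 CPM in Gsdme-KO and 139 CPM in WT, the lowest of the 13 groups in both libraries. Ly96, the subunit that binds lipopolysaccharide, was spread more evenly. Its level was 49.9 CPM in Gsdme-KO and 39.0 CPM in WT in cluster 3, 47.2 CPM in Gsdme-KO and 30.3 CPM in WT in monocyte-like cells and 33.6 CPM in Gsdme-KO and 18.8 CPM in WT in neutrophil-like cells.

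The parts of the lipopolysaccharide receptor were not all detected in the same cells. Among neutrophil-like cells with a Tlr4 UMI after thinning, Cd14 was also seen in 152 of 179 Gsdme-KO cells (84.9%, 78.8 to 89.8) and 190 of 222 WT cells (85.6%, 80.3 to 89.9). Over all thinned neutrophil-like cells the Cd14 share was 78.6% of Gsdme-KO and 82.1% of WT cells. Among fibroblast-like cells with a Tlr4 UMI, Cd14 was seen in 4 of 88 Gsdme-KO cells (4.55%, 1.25 to 11.2) and 10 of 82 WT cells (12.2%, 6.01 to 21.3). This was close to the Cd14 share of all thinned fibroblast-like cells, 3.58% of Gsdme-KO and 9.33% of WT cells, and to the 5.88% of Gsdme-KO and 10.1% of WT cells of the T cell-like group. In cluster 3 the share with Cd14 among cells with Tlr4 was 45.6% in Gsdme-KO and 49.5% in WT. Tlr4 in fibroblast-like cells was therefore mostly seen without Cd14 at this depth, and an undetected UMI does not show that a cell lacked the transcript.

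The endosomal receptors split by cell group. Tlr7, a receptor for single-stranded RNA, was a macrophage gene, with 213 CPM in Gsdme-KO and 232 CPM in WT in cluster 8, 195 CPM in Gsdme-KO and 213 CPM in WT in cluster 3 and 181 CPM in Gsdme-KO and 179 CPM in WT in cluster 4. The intervals of clusters 8 and 3 overlapped in both libraries. Neutrophil-like cells had 23.7 CPM in Gsdme-KO and 17.1 CPM in WT. Tlr13, a mouse receptor for bacterial ribosomal RNA, was highest in neutrophil-like cells, with 383 CPM in Gsdme-KO and 326 CPM in WT, and stood at 173 CPM in Gsdme-KO and 171 CPM in WT in cluster 4 and 88.1 CPM in Gsdme-KO and 80.5 CPM in WT in cluster 3. Among neutrophil-like cells, cluster 2, led by S100a9, S100a8 and Mmp8, had 468 CPM in Gsdme-KO and 337 CPM in WT. After thinning, Tlr13 was seen in 28.4% of Gsdme-KO and 25.8% of WT cells of the neutrophil-like group, 11.0% of Gsdme-KO and 11.5% of WT cells of cluster 8 and 0.735% of Gsdme-KO and 0.336% of WT cells of the T cell-like group. Tlr9, the receptor for CpG DNA, was sparse: it had 153 UMIs in Gsdme-KO and 148 UMIs in WT over all cells, and no group met the minimum of 30 UMIs and 10 CPM in the higher library. Its highest level was 13.3 CPM in cluster 8 in Gsdme-KO and 10.9 CPM in B cell-like cells in WT, the second from 7 UMIs. Tlr9 was therefore not compared by group. Over all cells it had ratio 0.770, 0.610 to 0.972, and a ratio of 0.987 with the Gsdme-KO groups weighted by their share of WT UMIs.

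The adaptor Myd88 was found in all groups, at 45.8 to 191 CPM in Gsdme-KO and 41.3 to 161 CPM in WT. It stood at 191 CPM in Gsdme-KO and 161 CPM in WT in neutrophil-like cells, 166 CPM in Gsdme-KO and 146 CPM in WT in monocyte-like cells and 136 CPM in Gsdme-KO and 119.7 CPM in WT in dendritic-like cells. Fibroblast-like cells had 86.5 CPM in Gsdme-KO and 109 CPM in WT and held 28.9% of its UMIs in Gsdme-KO and 24.9% in WT. The inhibitor Irak3 had a pattern of its own: neutrophil-like cells at 191 CPM in Gsdme-KO and 179.8 CPM in WT were followed by fibroblast-like cells at 170.4 CPM in Gsdme-KO and 161 CPM in WT and B cell-like cells at 117 CPM in Gsdme-KO and 91.8 CPM in WT. Cluster 3 had 49.9 CPM in Gsdme-KO and 41.0 CPM in WT and dendritic-like cells 19.3 CPM in Gsdme-KO and 17.6 CPM in WT. Within fibroblast-like cells, cluster 14, led by Sema3c, Ptx3 and Cd55, had 202 CPM in Gsdme-KO and 209.6 CPM in WT, and cluster 13, led by Mfap4 and C7, 97.9 CPM in Gsdme-KO and 100.4 CPM in WT. After thinning, Irak3 was seen in 228 of 1535 Gsdme-KO cells (14.9%, 13.1 to 16.7) and in 144 of 954 WT cells (15.1%, 12.9 to 17.5) of the fibroblast-like group, against 2.57% of Gsdme-KO and 1.01% of WT cells of the T cell-like group. Fibroblast-like cells held 54.7% of all Irak3 UMIs in Gsdme-KO and 41.4% in WT.

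**Figure D2:**
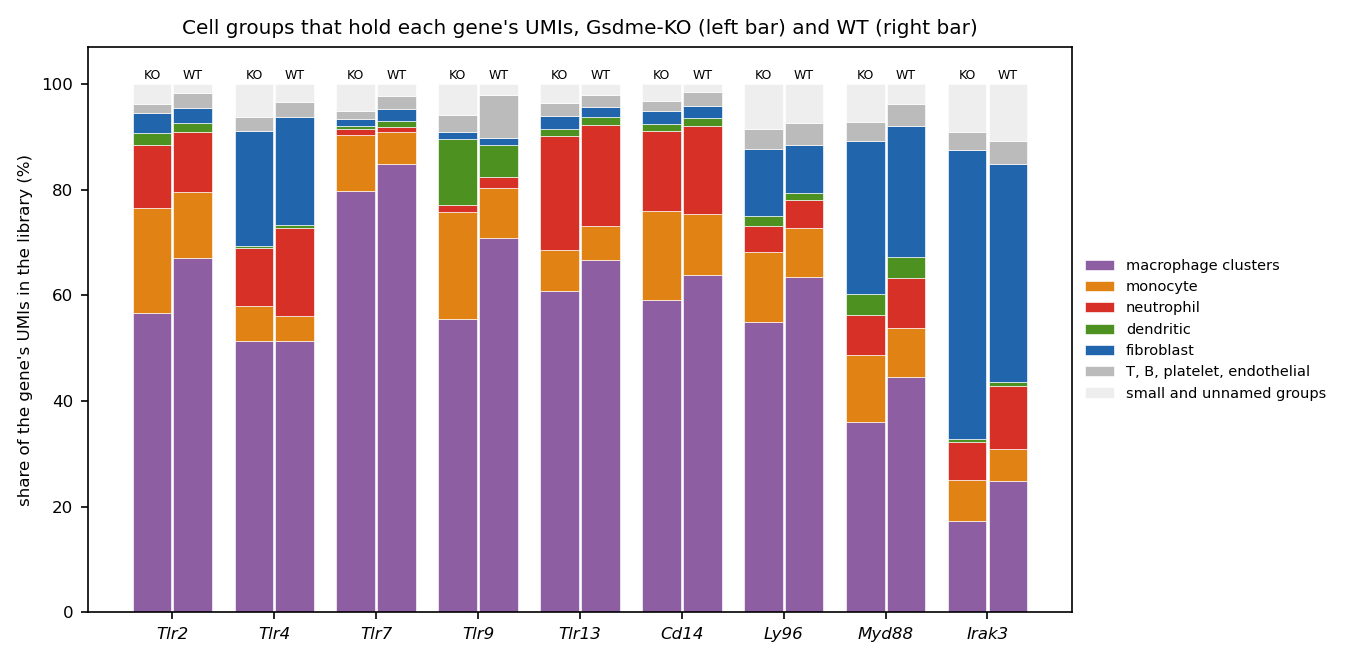
Share of each gene's UMIs (vertical axis, percent of the gene's UMIs in that library) held by cell groups, Gsdme-KO as the left and WT as the right bar of each gene. Macrophage, monocyte, neutrophil and dendritic-like cells together held 92.4% of Cd14 UMIs in Gsdme-KO and 93.5% in WT, whereas for Irak3 they held 32.8% in Gsdme-KO and 43.5% in WT.

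Myeloid cells held most UMIs of every gene but Irak3, and nearly all of those of 4 genes. Macrophage, monocyte, neutrophil and dendritic-like cells together held 90.7% of Tlr2, 92.0% of Tlr7, 91.5% of Tlr13 and 92.4% of Cd14 UMIs in Gsdme-KO. In WT they held 92.7% of Tlr2, 92.9% of Tlr7, 93.8% of Tlr13 and 93.5% of Cd14 UMIs. For Tlr9 the share was 89.5% in Gsdme-KO and 88.5% in WT, from few UMIs. For Tlr4 the myeloid share was 69.4% in Gsdme-KO and 73.2% in WT, and for Myd88 it was 60.3% in Gsdme-KO and 67.2% in WT.

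The Gsdme-KO and WT libraries were then compared within each cell group. A gene and group pair entered with at least 30 UMIs and 10 CPM in the higher library, and a ratio of Gsdme-KO over WT of at least 1.5, or at most its inverse, was called past the fold. Of 117 pairs 87 met the minimum. Of these, 7 (8.05%) were past the fold and higher in Gsdme-KO, where 5.27% of all gene and group pairs that met the minimum were. Another 12 (13.8%) were past the fold and lower in Gsdme-KO, where 7.7% of all pairs were. The 7 higher pairs were 4 of Ly96, 2 of Tlr4 and 1 of Myd88. The 12 lower pairs were 5 of Cd14, 3 of Tlr2, 2 of Tlr7 and 2 of Tlr13. Irak3 had no pair past the fold among 12, with ratios between 0.804 and 1.29. Pairs of 1 gene share its sequence and pairs of 1 group share its cells, so the counts are not over independent units. In clusters 3, 4 and 20 none of the 8 genes measured was past the fold. The share of all measured genes past the fold and higher was 2.6% in cluster 3, 2.25% in cluster 4 and 4.35% in cluster 20, and past the fold and lower it was 3.75% in cluster 3, 3.01% in cluster 4 and 7.29% in cluster 20. In 5 further groups none of the genes that met the minimum was past the fold and higher. These were 3 genes in T cell-like, 6 in dendritic-like, 5 in blood endothelial-like, 7 in fibroblast-like and 4 in platelet-like cells. The share of all measured genes there was 5.11% in T cell-like, 7.59% in dendritic-like, 8.6% in blood endothelial-like, 3.54% in fibroblast-like and 7.8% in platelet-like cells. With so few genes, a count of none is little information. None of the 8 genes measured was past the fold and lower in cluster 8, monocyte-like or neutrophil-like cells. The share of all measured genes past the fold and lower was 6.59% in cluster 8, 5.9% in monocyte-like and 8.47% in neutrophil-like cells.

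**Figure D3:**
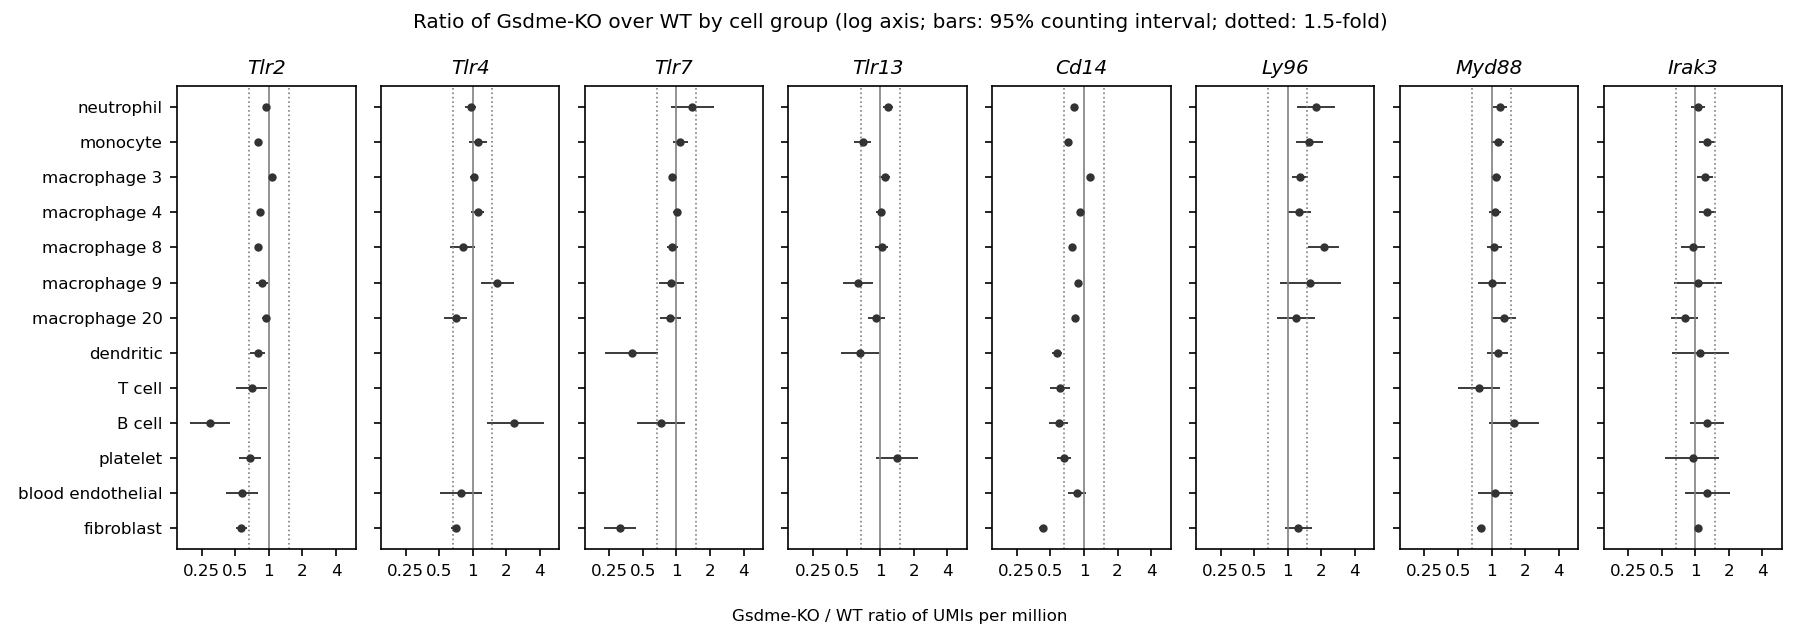
Ratio of Gsdme-KO over WT (horizontal log axis) for the genes that met the minimum, by cell group. Points are ratios of CPM, bars 95% counting intervals, the solid line equal levels and the dotted lines 1.5-fold either way. All 8 Ly96 points lie right of equal levels, whereas 12 of 13 Cd14 points and 12 of 13 Tlr2 points lie left of it.

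Ly96 was higher in Gsdme-KO in each of the 8 groups that met the minimum, with ratios between 1.19 and 2.10 and a median of 1.42. In cluster 8 it stood at 42.8 CPM in Gsdme-KO and 20.4 CPM in WT (ratio 2.10, 1.53 to 2.87, from 87 UMIs in Gsdme-KO and 83 UMIs in WT). In neutrophil-like cells the ratio was 1.79 (1.21 to 2.68), and in monocyte-like cells it was 1.56 (1.19 to 2.06). In cluster 9 the levels of Ly96 were 28.1 CPM in Gsdme-KO and 17.8 CPM in WT (ratio 1.58, 0.855 to 2.99), an interval that holds 1. The share of measured genes past the fold and higher was 3.31% in cluster 8, 5.96% in neutrophil-like, 5.89% in monocyte-like cells and 7.97% in cluster 9. Cluster 3, where Ly96 was highest, had 49.9 CPM in Gsdme-KO and 39.0 CPM in WT (ratio 1.28, 1.08 to 1.52). Of the 5981 genes measured in at least 8 groups, 3.29% were likewise higher in Gsdme-KO in every group they were measured in. Genes measured in more than 8 groups had to be higher in all of them, a harder condition than that met by Ly96. The 3.29% is therefore not the share for genes measured in 8 groups. The count was chosen after these values were seen. The macrophage marker sum, over 20 genes, had smaller ratios: the sum was 11994 CPM in Gsdme-KO and 12339 CPM in WT (ratio 0.972) in cluster 8 and 8259 CPM in Gsdme-KO and 6261 CPM in WT (ratio 1.32) in monocyte-like cells. Neutrophil-like cells had 1733 CPM in Gsdme-KO and 1893 CPM in WT (ratio 0.915). After thinning, Ly96 was seen in 14 of 290 Gsdme-KO cells (4.83%, 2.66 to 7.97) and in 11 of 598 WT cells (1.84%, 0.922 to 3.27) of cluster 8. In the T cell-like group the share was 0.735% of Gsdme-KO and 0.671% of WT cells, from few cells. Whether cluster 8 stood above that group was not tested.

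Cd14 was lower in Gsdme-KO in 12 of 13 groups, with a median ratio of 0.773, and the myeloid groups with the most Cd14 stayed within the fold. Of all measured genes, between 34.4% (fibroblast-like) and 50.2% (blood endothelial-like cells) had a ratio above 1, so many genes leaned lower. The share of genes lower in as many groups as Cd14 was not computed. Neutrophil-like cells had a Cd14 ratio of 0.812 (0.787 to 0.838), cluster 8 of 0.773 (0.746 to 0.801) and monocyte-like cells of 0.721 (0.697 to 0.746). The exception was cluster 3, at 933 CPM in Gsdme-KO and 829 CPM in WT (ratio 1.12, 1.08 to 1.17), where the ratio was 0.986 after thinning. The 5 groups past the fold were fibroblast-like (0.424), dendritic-like (0.573), B cell-like (0.591), T cell-like (0.607) and platelet-like cells (0.662). The share of measured genes past the fold and lower was 8.49% in fibroblast-like, 8.49% in dendritic-like, 13.6% in B cell-like, 8.68% in T cell-like and 14.4% in platelet-like cells. Without the cells with the highest doublet scores, Cd14 in T cell-like cells had a ratio of 0.950. In platelet-like cells Cd14 was past the fold in 5 of 12 alternative settings.

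Tlr2 ran with Cd14, lower in Gsdme-KO in 12 of 13 groups with a median ratio of 0.793. The shares of measured genes above 1 given for Cd14 bear on Tlr2 too. The myeloid ratios were 0.945 (0.888 to 1.01) in neutrophil-like cells, 0.799 (0.756 to 0.844) in cluster 8 and 0.793 (0.752 to 0.837) in monocyte-like cells. The neutrophil-like value pools cluster 0, with 838 Gsdme-KO and 1004 WT cells, and cluster 2, with 407 Gsdme-KO and 274 WT cells. These clusters differed in their Tlr2 level, as given in the last paragraph, so the pooled ratio also takes in their mix. The pooled neutrophil-like ratios of other genes, such as Cd14, Ly96, Saa3, Ptgs2, S100a8 and S100a9, take in this mix as well. Cluster 3 was again the exception, with 283 CPM in Gsdme-KO and 263 CPM in WT (ratio 1.08, 1.01 to 1.15). At Leiden resolution 2, a finer clustering, the cluster 3 ratio was 0.983, and none of the 13 groups had a Tlr2 ratio above 1. Past the fold were B cell-like cells at 52.0 CPM in Gsdme-KO and 174 CPM in WT (ratio 0.299, 0.196 to 0.444), blood endothelial-like cells at 69.1 CPM in Gsdme-KO and 121 CPM in WT (ratio 0.570, 0.409 to 0.792) and fibroblast-like cells at 33.9 CPM in Gsdme-KO and 59.9 CPM in WT (ratio 0.567, 0.503 to 0.638). Of all measured genes, 7.72% were past the fold and lower in blood endothelial-like cells. As a mean over cells instead of a sum, the blood endothelial ratio of Tlr2 was 0.798.

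Transcripts of macrophages were seen in the other cell groups, and their amount differed between the libraries. In fibroblast-like cells the 20 macrophage markers summed to 577 CPM in Gsdme-KO and 1039 CPM in WT (ratio 0.555), all 20 with UMIs in each library. In T cell-like cells they summed to 1343 CPM in Gsdme-KO and 2063 CPM in WT (ratio 0.651), and in dendritic-like cells to 1515 CPM in Gsdme-KO and 2013 CPM in WT (ratio 0.753). In these groups the markers and Cd14 were both lower in Gsdme-KO. In B cell-like cells the markers ran the other way, at 5564 CPM in Gsdme-KO and 2586 CPM in WT (ratio 2.15), while Tlr2 and Cd14 were lower in Gsdme-KO there. In platelet-like cells the marker sums were close to equal, at 6992 CPM in Gsdme-KO and 7104 CPM in WT (ratio 0.984). Across the groups other than macrophages and monocytes, the sums ranged from 577 to 6992 CPM in Gsdme-KO and from 1039 to 7104 CPM in WT. All 20 markers had UMIs in these groups in both libraries, except Cd163, which was at 0 in WT B cell-like cells.

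**Figure D4:**
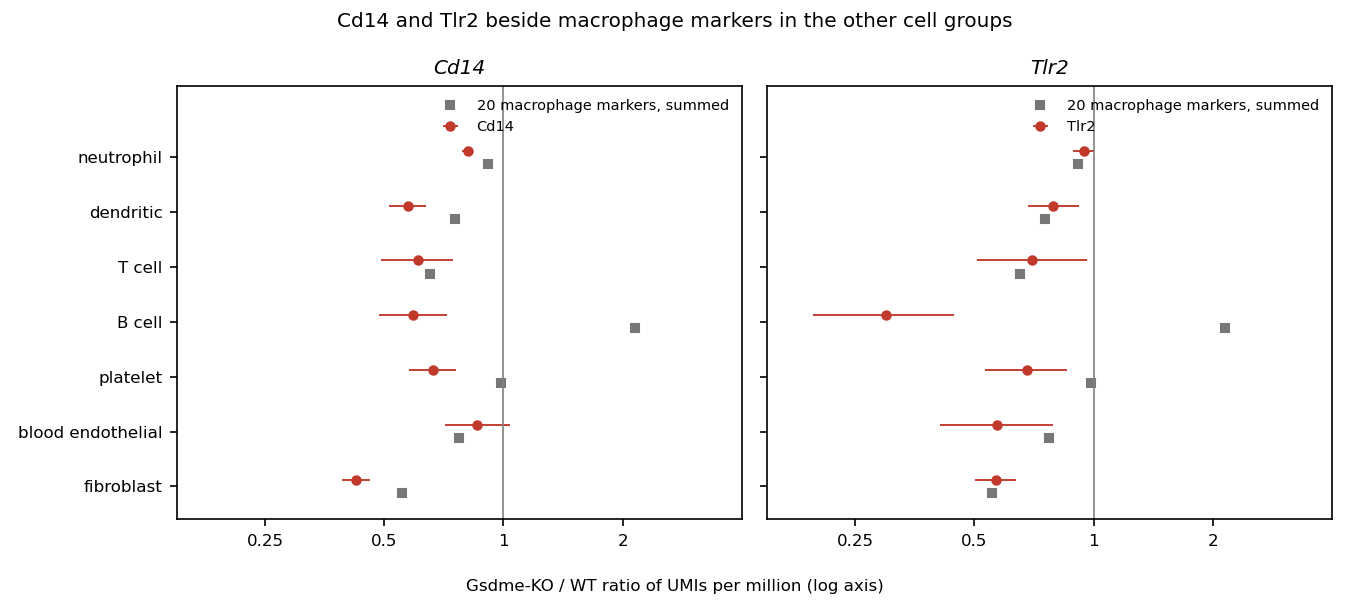
Ratio of Gsdme-KO over WT (horizontal log axis) of Cd14 (left) and Tlr2 (right), as red points with 95% counting intervals, beside that of 20 summed macrophage markers (grey squares), in the groups other than macrophages and monocytes. In fibroblast-like cells the ratio was 0.424 for Cd14, 0.567 for Tlr2 and 0.555 for the markers, and in B cell-like cells the markers stood at 2.15.

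The ratios were recomputed in cells with UMIs of at most 2 of the 20 macrophage markers, a choice made after the data were seen. In fibroblast-like cells 797 Gsdme-KO and 291 WT cells remained, and Cd14 stood at 28.6 CPM in Gsdme-KO and 77.5 CPM in WT (ratio 0.369, 0.295 to 0.463). Over all fibroblast-like cells the Cd14 ratio was 0.424. The cut-off counts markers per cell whatever its depth, and it uses no neutrophil or monocyte markers. The part of transcripts from other cells in the remaining Cd14 difference was therefore not tested. Tlr2 there stood at 20.6 CPM in Gsdme-KO and 27.8 CPM in WT (ratio 0.743, 0.532 to 1.06), an interval that holds 1. In dendritic-like cells Cd14 turned to 175 CPM in Gsdme-KO and 119 CPM in WT (ratio 1.47, 0.988 to 2.22), and in platelet-like cells the ratio turned to 1.23. In T cell-like cells Cd14 stood at 79.5 CPM in Gsdme-KO and 95.8 CPM in WT (ratio 0.830, 0.564 to 1.22), within the fold. In B cell-like cells 18 UMIs in Gsdme-KO and 17 UMIs in WT were left for Cd14 (ratio 0.992, 0.483 to 2.05) and 6 UMIs in each library for Tlr2 (ratio 0.937, 0.251 to 3.51), both below the minimum. Myd88 in dendritic-like cells had 0.658 (0.436 to 0.998), against 1.13 over all cells of that group. The part of macrophage transcripts in the remaining differences was not tested.

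Tlr4 differed by cell group. It was near equal in cluster 3 (ratio 1.03, 0.948 to 1.11) and in neutrophil-like cells as a whole (ratio 0.957, 0.852 to 1.08). Within these, it had ratio 0.739, 0.602 to 0.908 in cluster 2 and ratio 1.03, 0.895 to 1.19 in cluster 0. Cluster 2 held 407 Gsdme-KO and 274 WT cells, and cluster 0 held 838 Gsdme-KO and 1004 WT cells. In fibroblast-like cells it was lower in Gsdme-KO, with ratio 0.702, 0.639 to 0.771, short of the fold. Cluster 14 had the lower ratio, at 62.5 CPM in Gsdme-KO and 104 CPM in WT (ratio 0.600, 0.536 to 0.672), while cluster 13 had 56.6 CPM in Gsdme-KO and 64.7 CPM in WT (ratio 0.874, 0.739 to 1.04). Whether these clusters, or those of neutrophil-like cells, differed in their ratio was not tested. With few macrophage markers the fibroblast ratio of Tlr4 was 0.738. Tlr4 was past the fold and higher in B cell-like cells, at 66.2 CPM in Gsdme-KO and 28.0 CPM in WT (ratio 2.36, 1.33 to 4.36, from 42 UMIs in Gsdme-KO and 18 UMIs in WT), and in cluster 9, at 95.2 CPM in Gsdme-KO and 57.4 CPM in WT (ratio 1.66, 1.19 to 2.32), where the neutrophil marker sum had a ratio of 0.149. In B cell-like cells 9.05% of measured genes were past the fold and higher, and the macrophage marker sum there had a ratio of 2.15. In B cell-like cells with few macrophage markers, 14 UMIs in Gsdme-KO and 5 UMIs in WT were left for Tlr4. Their ratio was 2.62 (0.893 to 9.31), below the minimum and with an interval that holds 1. The part of macrophage transcripts in the Tlr4 value was not tested. After thinning, Tlr4 was seen in 4 of 164 Gsdme-KO and 1 of 206 WT B cell-like cells, shares whose intervals include those of the T cell-like group.

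Among the endosomal receptors, Tlr7 was close to equal in the groups where it was high: ratio 0.920, 0.819 to 1.03 in cluster 8, ratio 0.915, 0.848 to 0.986 in cluster 3 and ratio 1.01, 0.924 to 1.10 in cluster 4. It was past the fold and lower in groups where it was low, with 3.42 CPM in Gsdme-KO and 11.0 CPM in WT in fibroblast-like cells (ratio 0.310, 0.221 to 0.431) and 13.7 CPM in Gsdme-KO and 34.3 CPM in WT in dendritic-like cells (ratio 0.399, 0.227 to 0.682). These thinned shares were 0.391% of Gsdme-KO and 0.629% of WT cells in the fibroblast-like and 0.361% of Gsdme-KO and 2.69% of WT cells in the dendritic-like group, beside 1.47% of Gsdme-KO and 2.68% of WT cells in the T cell-like group. The dendritic-like group may pool several cell types, as given above, and the part of their mix in its Tlr7 value was not tested. Tlr13 was higher in Gsdme-KO neutrophil-like cells (ratio 1.17, 1.06 to 1.30) within the fold, with ratio 1.39, 1.15 to 1.68 in cluster 2 and ratio 1.06, 0.937 to 1.20 in cluster 0. It was lower in monocyte-like cells (ratio 0.694, 0.583 to 0.826), within the fold. Past the fold and lower were cluster 9, at 66.2 CPM in Gsdme-KO and 105 CPM in WT (ratio 0.630, 0.461 to 0.857), and dendritic-like cells (ratio 0.659, 0.441 to 0.981), the second in only 5 of 10 alternative settings. In cluster 9, where 12.1% of measured genes were past the fold and lower, the 9 neutrophil markers summed to 91.6 CPM in Gsdme-KO and 616 CPM in WT (ratio 0.149), lower in the same direction, and their part in the Tlr13 value was not tested.

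Myd88 and Irak3 differed little. By group, 34.4% to 50.2% of all measured genes had a ratio above 1, and no share of genes was computed for the counts of groups below. Myd88 was higher in Gsdme-KO in 10 of 12 groups with a median ratio of 1.09, and lower in fibroblast-like cells (ratio 0.797, 0.735 to 0.865). Its 1 pair past the fold was B cell-like cells, at 66.2 CPM in Gsdme-KO and 42.0 CPM in WT (ratio 1.58, 0.949 to 2.66), an interval that holds 1. Irak3 was higher in 9 of 12 groups with a median ratio of 1.08. The largest of its ratios were in cluster 4 (ratio 1.29, 1.08 to 1.53), blood endothelial-like cells (ratio 1.28, 0.814 to 2.06) and monocyte-like cells (ratio 1.27, 1.08 to 1.51). As a mean over cells, the ratio was 0.764 in blood endothelial-like and 0.979 in monocyte-like cells. In fibroblast-like cells its level was near equal (ratio 1.06, 0.996 to 1.13), and within clusters 13 and 14 the ratios were 0.976 and 0.965. The scale itself bears on fibroblast-like values, since the median log2 ratio over all 8671 genes of that group was -0.12.

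Summed over all cells, the ratios also take in the make-up of the libraries. Over all cells Tlr2 stood at 304 CPM in Gsdme-KO and 494 CPM in WT (ratio 0.615), Cd14 at 845 CPM in Gsdme-KO and 1385 CPM in WT (ratio 0.610) and Tlr13 at 71.4 CPM in Gsdme-KO and 99.6 CPM in WT (ratio 0.717). With the Gsdme-KO groups weighted by their share of WT UMIs, the ratio was 0.846 for Tlr2, 0.835 for Cd14 and 1.01 for Tlr13. Tlr7 likewise had a ratio of 0.764 over all cells and 0.940 when weighted. Ly96 kept a ratio above 1 either way, 1.34 over all cells and 1.42 weighted. Irak3, with its share in fibroblast-like cells, had 1.20 over all cells and 1.07 weighted. Tlr4 had 0.988 and 0.956, and Myd88 1.03 and 1.04, for all cells and weighted. Fibroblast-like cells were 17.5% of Gsdme-KO and 12.6% of WT cells, and cluster 8 was 3.52% of Gsdme-KO and 8.49% of WT cells.

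The other genes of the pathway were taken from 8 lists of 74 genes, all of which were matched. Of 724 gene and group pairs that met the minimum, 41 (5.66%) were past the fold and higher and 75 (10.4%) lower, close to the 5.27% and 7.7% of all pairs. Few pairs of the signalling core were past the fold: of 156 pairs of kinases and ubiquitin ligases 1 was higher and 6 lower, and of 116 pairs of negative regulators 2 were higher and 6 lower. Among kinases, Map3k8, which activates ERK downstream of the receptors, stood at 54.4 CPM in Gsdme-KO and 86.8 CPM in WT in fibroblast-like cells (ratio 0.627, 0.570 to 0.690). Irak2 stood at 107 CPM in Gsdme-KO and 204 CPM in WT in B cell-like cells. Among negative regulators, the NF-kB inhibitor gene Nfkbia stood at 1676 CPM in Gsdme-KO and 2540.4 CPM in WT in monocyte-like cells (ratio 0.660, 0.637 to 0.683), and Socs1 at 15.7 CPM in Gsdme-KO and 29.9 CPM in WT in the same cells. The nuclear inhibitor Nfkbid stood at 15.4 CPM in Gsdme-KO and 32.5 CPM in WT in fibroblast-like and 99.8 CPM in Gsdme-KO and 53.9 CPM in WT in blood endothelial-like cells.

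Of the other Toll-like receptors, 1 of 27 pairs was higher and 1 lower. Tlr6, a partner of Tlr2, stood at 26.1 CPM in Gsdme-KO and 15.2 CPM in WT in cluster 20 (ratio 1.72, 1.02 to 2.92), and the flagellin receptor Tlr5 at 6.63 CPM in Gsdme-KO and 14.1 CPM in WT in monocyte-like cells (ratio 0.469, 0.273 to 0.798). Of the other adaptors, 3 of 32 pairs were higher and 3 lower. Tirap, which bridges Myd88 to Tlr2 and Tlr4, stood at 31.5 CPM in Gsdme-KO and 18.0 CPM in WT in cluster 20 (ratio 1.75, 1.09 to 2.83). Ticam1, the adaptor of the Myd88-independent branch, stood at 6.02 CPM in Gsdme-KO and 11.9 CPM in WT in cluster 3 and 14.5 CPM in Gsdme-KO and 7.67 CPM in WT in monocyte-like cells. Among the accessory proteins 1 of 75 pairs was higher and 11 (14.7%) lower. The Tlr4-like protein Cd180 stood at 53.1 CPM in Gsdme-KO and 80.3 CPM in WT in cluster 3 (ratio 0.661, 0.580 to 0.755) and 178 CPM in Gsdme-KO and 309 CPM in WT in cluster 9. Cd36, a scavenger receptor and Tlr2 co-receptor, stood at 213 CPM in Gsdme-KO and 588 CPM in WT in cluster 3 (ratio 0.361, 0.342 to 0.382). Unc93b1, which carries Tlr7, Tlr9 and Tlr13 to endosomes, stood at 44.1 CPM in Gsdme-KO and 67.0 CPM in WT in fibroblast-like cells (ratio 0.658, 0.591 to 0.733), where macrophage markers were also lower in Gsdme-KO.

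Of the transcription factors, 1 of 101 pairs was higher and 9 lower, and 5 of the 9 were Irf7, which acts downstream of Tlr7 and Tlr9 and is also induced by interferon. Irf7 stood at 68.4 CPM in Gsdme-KO and 108 CPM in WT in cluster 3 (ratio 0.635, 0.566 to 0.712) and 10.5 CPM in Gsdme-KO and 20.7 CPM in WT in cluster 4 (ratio 0.505, 0.358 to 0.703). In neutrophil-like cells it stood at 16.6 CPM in Gsdme-KO and 29.7 CPM in WT, in monocyte-like cells at 41.3 CPM in Gsdme-KO and 63.0 CPM in WT and in dendritic-like cells at 31.1 CPM in Gsdme-KO and 47.1 CPM in WT. Nfkb1 stood at 371 CPM in Gsdme-KO and 178 CPM in WT in blood endothelial-like cells (ratio 2.08, 1.69 to 2.58).

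Of the genes induced by the receptors, 16 of 140 pairs were higher (11.4%) and 24 lower (17.1%). They did not share 1 direction. The cytokine Il6 stood at 40.8 CPM in Gsdme-KO and 22.3 CPM in WT in cluster 3 (ratio 1.83, 1.48 to 2.28) and 147 CPM in Gsdme-KO and 76.4 CPM in WT in blood endothelial-like cells (ratio 1.92, 1.39 to 2.69). The acute-phase gene Saa3 stood at 126 CPM in Gsdme-KO and 52.9 CPM in WT in neutrophil-like cells (ratio 2.37, 1.91 to 2.97) and was past the fold and higher in 6 groups. The cyclooxygenase gene Ptgs2 stood at 3487 CPM in Gsdme-KO and 5764 CPM in WT in neutrophil-like cells (ratio 0.605, 0.588 to 0.622) and 733 CPM in Gsdme-KO and 419 CPM in WT in blood endothelial-like cells. In blood endothelial-like cells the 9 neutrophil markers summed to 314 CPM in Gsdme-KO and 141 CPM in WT (ratio 2.23) and the 8 fibroblast markers to 1852 CPM in Gsdme-KO and 3247 CPM in WT (ratio 0.570), and their part in the values of that group was not tested. Il12b, which encodes the shared subunit of interleukins 12 and 23, stood at 51.7 CPM in Gsdme-KO and 191 CPM in WT in dendritic-like cells (ratio 0.271, 0.209 to 0.349). In cluster 8 it had 1 UMI in Gsdme-KO and 138 UMIs in WT, a ratio of 0.0145 (0.000364 to 0.0821). In fibroblast-like cells 1 of 11 induced genes was past the fold and higher and 5 lower, where 3.54% of measured genes were higher and 8.49% lower. The higher one was the chemokine gene Cxcl1, at 4273 CPM in Gsdme-KO and 2267 CPM in WT (ratio 1.89, 1.86 to 1.91). Il6 (ratio 1.39, 1.35 to 1.42) and Ptgs2 (ratio 1.35, 1.31 to 1.38) were higher within the fold there, and these 3 were added after their values were seen. Among the lower ones, Tnf stood at 50.9 CPM in Gsdme-KO and 124 CPM in WT and Il1b at 187 CPM in Gsdme-KO and 383 CPM in WT, beside the lower macrophage markers of these cells. Il10 stood at 32.2 CPM in Gsdme-KO and 57.3 CPM in WT in neutrophil-like cells (ratio 0.562, 0.413 to 0.759) and 96.2 CPM in Gsdme-KO and 45.1 CPM in WT in B cell-like cells (ratio 2.13, 1.35 to 3.44).

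Proteins reported as endogenous ligands of Tlr2 and Tlr4 had 16 of 77 pairs higher (20.8%) and 15 lower (19.5%). The alarmin gene S100a9 stood at 2396 CPM in Gsdme-KO and 3622 CPM in WT in neutrophil-like cells (ratio 0.661, 0.639 to 0.685), its main source, and was lower in Gsdme-KO past the fold in 9 groups in all. It was past the fold and higher in blood endothelial-like (3.01) and platelet-like cells (1.55). Its partner S100a8 ran the other way in neutrophil-like cells, at 3429.8 CPM in Gsdme-KO and 2558 CPM in WT (ratio 1.34, 1.30 to 1.39), within the fold. Neutrophil-like cluster 2, whose leading genes include S100a9 and S100a8, held 407 Gsdme-KO and 274 WT cells, and cluster 0 held 838 Gsdme-KO and 1004 WT cells. The pooled ratios of both genes also take in this mix, and its part was not tested. S100a8 was past the fold and higher in clusters 8 (2.56) and 20 (2.51), blood endothelial-like (1.76) and platelet-like cells (2.76). It was past the fold and lower in clusters 3 and 9, monocyte-like and dendritic-like cells. The higher S100a9 values and those of S100a8 outside cluster 9 were added after they were seen. In cluster 9 S100a8 stood at 7.25 CPM in Gsdme-KO and 218 CPM in WT, along with the other neutrophil markers. Both genes are on the neutrophil marker list. The sum over that list had a ratio of 0.360 in cluster 3, 0.484 in cluster 4 and 0.149 in cluster 9. It was 0.511 in monocyte-like, 0.794 in T cell-like, 0.868 in fibroblast-like and 0.987 in dendritic-like cells. In cluster 20 it was 1.08 and in neutrophil-like cells 1.04. The part of neutrophil transcripts in the S100a8 and S100a9 values of other groups was not tested. The proteoglycan gene Vcan, also on the monocyte marker list, stood at 79.2 CPM in Gsdme-KO and 21.4 CPM in WT in cluster 8 (ratio 3.70, 2.83 to 4.86) and 26.5 CPM in Gsdme-KO and 11.2 CPM in WT in cluster 3 (ratio 2.38, 1.78 to 3.24). Bgn, another matrix proteoglycan, stood at 55.4 CPM in Gsdme-KO and 28.7 CPM in WT in dendritic-like cells, where fibroblast markers summed to 1734 CPM in Gsdme-KO and 603 CPM in WT (ratio 2.87).

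The genes with the most similar patterns were sought over 26 points, the 13 groups in both libraries, by Pearson correlation of log2(CPM + 10) among 7306 genes. The points of 1 library share its depth and those of 1 group its cell type, so the values are descriptions. Tlr2 and Cd14 were the most alike among the 9 genes (r = 0.976), followed by Tlr13 and Cd14 (0.946). Nearest to Tlr2 outside the 9 genes were Cflar (0.964), Cd300c2 (0.960) and Lilr4b (0.953), and nearest to Cd14 were Rab20 (0.973), Osm (0.973) and Cflar (0.962). Tlr13 was most like Tnf (0.958), Rab20 (0.952) and Il10rb (0.948). Tlr7 was most like Apobec1 (0.965), the macrophage gene Adgre1 (0.958) and Tlr8 (0.952), its close relative. Tlr4 had looser neighbours, Rab31 (0.829), Slc31a2 (0.824) and Cebpb (0.812), and with Tlr2 it had r = 0.367. Ly96 was most like the copper transporter gene Slc31a1 (0.856), Bst1 (0.844) and Serpinb8 (0.834). Myd88 was most like Tiparp (0.833), Csrnp1 (0.833) and Nadk (0.827), and Irak3 like Ggct (0.801), Hp (0.767) and Arid5b (0.727). For Tlr9, Ildr1 (0.897), Atf6 (0.845) and Foxn3 (0.806) were nearest, at levels too low to rest on.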

How the data were processed

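Single-cell libraries were made from enzymatically digested aorta with BD Rhapsody, per the labels' protocols. The deposited matrices hold whole-number counts per gene and barcode, not normalised, taken here as UMIs from the platform. CASAVA 1.8, STARsolo and the mm10 build are named in the submitters' processing notes. The gene annotation and strand setting were not given there. The lowest barcode total was 500 UMIs in each library. Cells with at least 500 UMIs, 250 genes and at most 25% mitochondrial UMIs were kept. Scrublet marked 0 cells in each library and so has not worked, and doublets remain.

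With scanpy 1.11.5, counts were scaled to 10000 per cell and log-transformed. Then 2000 variable genes, chosen with the library as batch after removing the 9 genes, gave 30 principal components, 15 neighbours and Leiden clusters at resolution 1. A cluster took a name from at least 3 markers detected in at least 25% of its cells and at least 2-fold over other cells (with 5 CPM added). Of the clusters 5 stayed unnamed. Macrophage clusters were compared by number, since no macrophage marker was among the leading genes of cluster 9.

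Counts were summed per group and library. Levels carry exact Poisson, ratios exact conditional binomial and shares Clopper-Pearson intervals at the 95% level. With 1 library per genotype no test was run. The ratio intervals were run on Poisson counts redrawn from the group sums, the model that they assume. This checks their computation only, since the redrawn counts hold no spread between cells or mice. All 9 genes are named, with list genes past 1.5-fold, at most 4 per list and group, of which the text gives part. The most similar genes are the 3 with the highest correlation among genes with at least 50 CPM in a point. The genes, lists and tests were chosen with earlier results of these data known. Alternatives covered scaling (TMM from edgeR 4.0.16, size factors), filters on cells and low counts, doublet scores, means over cells, thinning, resolution, the fold and clustering with the 9 genes.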

Additional observations from a re-analysis of the deposited data

Results flagged for a closer look

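For 5 genes the libraries differed in opposite directions in different cell groups, with counting intervals on either side of 1. These differences between groups were not tested, since each genotype had 1 library. Tlr2 had a ratio of Gsdme-KO over WT of 1.08 in macrophage cluster 3, but 0.983 at Leiden resolution 2, and 0.299 in B cell-like cells. Tlr4 had a ratio of 2.36 in B cell-like cells and 0.702 in fibroblast-like cells. Tlr13 had 1.17 in neutrophil-like cells and 0.630 in macrophage cluster 9. Cd14 had 1.12 in macrophage cluster 3, but 0.986 after thinning, and 0.424 in fibroblast-like cells. Myd88 had 1.30 in macrophage cluster 20 and 0.797 in fibroblast-like cells.

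Signals were also seen in cells outside the 13 compared groups, where a cell minimum or a marker rule was not met. Only pairs past the fold and higher in Gsdme-KO are listed here, and lower pairs are left out. The list therefore does not show in which direction these groups ran. The share of all measured genes past the fold was not computed for them. In smooth muscle-like cells, 174 in Gsdme-KO and 61 in WT, Tlr4 stood at 46.8 CPM in Gsdme-KO and 14.0 CPM in WT (ratio 3.34, 1.42 to 9.60, from 44 UMIs in Gsdme-KO and 6 UMIs in WT). In mesothelial-like cells the ratio was 1.87 for Tlr4 and 1.62 for Myd88, both with intervals that hold 1. In the unnamed clusters the ratio was 1.85 for Tlr2 in cluster 18, 1.70 for Tlr7 in cluster 5, 1.58 for Myd88 in cluster 6 and 1.57 for Irak3 in cluster 11. The macrophage marker sum had a ratio of 0.861 in smooth muscle-like cells, 0.921 in cluster 18 and 1.57 in cluster 11, and its part in these values was not tested.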

How the results depend on the processing

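Of 922 recomputed ratios over 12 settings, 27 lay on the other side of 1 from the reported value. Of these, 11 were inside the counting interval of the reported ratio, 14 were outside it for a pair within the fold, and 2 were pairs past the fold. Both pairs past the fold were Cd14 with few macrophage markers, a setting added after the data were seen: 1.47 in dendritic-like (0.573 over all cells) and 1.23 in platelet-like cells (0.662 over all cells). That setting gave 3 pairs past the fold and lower instead of 12, but only 21 of the 39 pairs outside macrophages and monocytes still met the minimum. Of the 11 lower pairs there, 5 were still measured and 1 was still past the fold. There were 7 such lower pairs without the highest doublet scores and 4 with a fold of 2. The 7 higher pairs became 14 with no filter on low counts, 4 after thinning and 2 with a fold of 2. The other settings gave between 6 and 9 higher and between 9 and 18 lower pairs. Ly96 had a ratio above 1 in every group measured under all 12 settings, over 1 to 13 groups. Thinning left 55 pairs and moved 23, which depth limits. Cd14 in blood endothelial-like cells had 0.860, but 1.39 as a mean over cells and 3.27 after thinning, and the cause was not tested. The TMM factor of fibroblast-like cells, Gsdme-KO over WT, was -0.17 on the log2 scale, which raises ratios there. No paired analysis was possible because each genotype had 1 library.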

Other observations

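The other Toll-like receptor genes also differed in level between the cell groups. Tlr8, a relative of Tlr7, was a macrophage gene, with 108 CPM in Gsdme-KO and 114 CPM in WT in macrophage cluster 3 and 90.3 CPM in Gsdme-KO and 95.8 CPM in WT in cluster 4. Neutrophil-like cells had 6.63 CPM in Gsdme-KO and 8.31 CPM in WT. Tlr6, a partner of Tlr2, was highest in neutrophil-like cells, with 79.1 CPM in Gsdme-KO and 98.4 CPM in WT, while Tlr1, its other partner, stood at 10.9 CPM in Gsdme-KO and 7.87 CPM in WT there and at 47.2 CPM in Gsdme-KO and 59.8 CPM in WT in cluster 8. Tlr3, a receptor for double-stranded RNA that does not use Myd88, stood at 41.7 CPM in Gsdme-KO and 43.9 CPM in WT in dendritic-like cells, 21.0 CPM in Gsdme-KO and 29.1 CPM in WT in cluster 3 and 16.1 CPM in Gsdme-KO and 22.0 CPM in WT in fibroblast-like cells. Tlr5 stood at 19.7 CPM in Gsdme-KO and 26.5 CPM in WT in cluster 3.

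The neutrophil-like clusters also differed in level. Cluster 2, led by S100a9, S100a8 and Mmp8, had more Tlr2, with 1374 CPM in Gsdme-KO and 1399 CPM in WT, than cluster 0, led by Il23a, Hcar2 and Il1r2, with 666 CPM in Gsdme-KO and 824 CPM in WT. Irak3 stood at 272 CPM in Gsdme-KO and 268 CPM in WT in cluster 2 and 152 CPM in Gsdme-KO and 155 CPM in WT in cluster 0. Cd14 stood at 4078 CPM in Gsdme-KO and 4652 CPM in WT in cluster 2 and 2756 CPM in Gsdme-KO and 3723 CPM in WT in cluster 0. Tlr4 had 283 CPM in Gsdme-KO and 383 CPM in WT in cluster 2 and 248 CPM in Gsdme-KO and 240.2 CPM in WT in cluster 0. Cells were clustered without these genes, but on other genes of the same cells, so these levels are descriptions.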
